A study of Mus musculus with 2 samples.

Results

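The 10 genes described here are the embryonic globins of the mouse and a set of factors that silence them. They were taken by symbol: the embryonic globins Hbb-y, Hbb-bh1 and Hba-x, the DNA-binding silencers Bcl11a, Zbtb7a and Sox6, and Mbd2, Mbd3, Gatad2a and Chd4 of the NuRD complex. All 10 were found among the 43346 Ensembl genes of the tables. The cells were primary Ter119-positive erythroblasts of mouse fetal liver, from pooled male and female embryos of 14.5 days, and their poly(A) RNA was sequenced as paired ends. The series holds 1 group of 2 libraries, labelled biological replicates 1 and 2 and called library 1 and library 2 here, with no treated, mutant or other control group. The labels give no strain, give the health state as unknown, and list separate biosamples but the same donor entry for the libraries. Whether they came from separate embryos is not stated, so a difference between these libraries may be technical. The p-values set that difference against counting error only and hold no estimate of the spread between replicates.

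Mouse red cells form in successive waves. Primitive cells of the yolk sac carry embryonic globins, and definitive cells of the fetal liver carry adult globins, so the fetal liver erythroblast is a cell in which the embryonic genes have been largely shut off. Bcl11a and Zbtb7a are zinc finger repressors best known for silencing fetal globin in human red cells, and both work through NuRD, a complex that joins a nucleosome-remodelling ATPase to histone deacetylases. Sox6 is an HMG-box factor that represses Hbb-y in the mouse.

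Library 1 held 51190555 expected counts and library 2 held 44256287. The adult and embryonic globin genes together took 86.0% and 84.4% of TPM, a level corrected for transcript length and library depth, and 27.7% and 27.8% of counts lay outside them. All 7 erythroid markers measured, such as the anion exchanger Slc4a1 (589 TPM in library 1 and 762 TPM in library 2), passed 1 TPM in both libraries. Means are given ± SD over the 2 libraries (n = 2). In bulk RNA such as this, fewer cells of a type and less RNA per cell cannot be told apart.

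The embryonic and adult globins are relatives whose reads might be confused, so their sequences are set side by side first. Over the first 60 coding bases (GENCODE M21, mm10; Hba-x-201 for Hba-x), with capitals at the bases that differ from the adult gene of the same family, the genes read as follows.
Hbb-bs (adult beta): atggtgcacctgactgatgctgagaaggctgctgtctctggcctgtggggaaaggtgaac
Hbb-y: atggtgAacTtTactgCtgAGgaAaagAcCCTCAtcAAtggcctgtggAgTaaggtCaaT
Hbb-bh1: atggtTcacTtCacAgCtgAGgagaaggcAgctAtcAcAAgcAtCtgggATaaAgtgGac
Hba-a1 (adult alpha): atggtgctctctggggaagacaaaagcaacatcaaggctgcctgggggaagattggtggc
Hba-x: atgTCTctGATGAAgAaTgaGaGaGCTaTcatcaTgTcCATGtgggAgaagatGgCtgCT
Hbb-y differed from Hbb-bs at 19 of these bases, Hbb-bh1 at 18, and Hba-x from Hba-a1 at 28.

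Over the whole coding sequence, stop codon included, Hbb-y was 74.3% identical to Hbb-bs and 76.4% identical to Hbb-bh1, Hbb-bh1 was 74.1% identical to Hbb-bs, and Hba-x was 62.0% identical to Hba-a1. The adult pairs were far closer, at 99.8% for Hbb-bs with Hbb-bt and 99.8% for Hba-a1 with Hba-a2. None of the 603, 583 and 906 words of 31 bases in the transcripts of Hbb-y, Hbb-bh1 and Hba-x occurred in a transcript of another gene, on either strand, against 54.4% of the words of Hbb-bs and 75.5% of those of Hba-a1. The deposited counts of the 3 embryonic genes were whole numbers, as were those of the 7 factors (within 0.01 in both libraries), as they are where no read is divided between genes. Bcl11a shared 2.10% of its words with other genes and the other factors at most 0.508%.

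The promoters of the embryonic genes are shown beside those of the adult genes because silencing acts there. The stretches are the 130 bases before the RefSeq start, on the gene's strand, in build GRCm38.p6, with matches to the motifs searched in capitals. GENCODE M21 places the gene starts of Hba-x, Hba-a1 and Hbb-bs further upstream than these stretches and that of Hbb-y inside its stretch, so RefSeq and GENCODE differ in the start. The Hba-x stretch does not directly precede the start of Hba-x-202, at 32276893, the transcript with most of the Hba-x TPM in both libraries.
Hbb-y, chr7:103853208-103853337, minus strand: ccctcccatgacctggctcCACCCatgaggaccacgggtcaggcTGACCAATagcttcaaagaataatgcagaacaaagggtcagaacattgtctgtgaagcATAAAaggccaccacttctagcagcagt
Hbb-bs, chr7:103827929-103828058, minus strand: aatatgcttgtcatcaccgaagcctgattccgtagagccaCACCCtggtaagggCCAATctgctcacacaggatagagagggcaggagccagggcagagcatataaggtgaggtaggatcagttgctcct
Hba-x, chr11:32276470-32276599, plus strand: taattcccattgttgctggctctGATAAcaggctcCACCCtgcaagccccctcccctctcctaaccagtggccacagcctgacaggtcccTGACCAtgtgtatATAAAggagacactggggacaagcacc
Hba-a1, chr11:32283542-32283671, plus strand: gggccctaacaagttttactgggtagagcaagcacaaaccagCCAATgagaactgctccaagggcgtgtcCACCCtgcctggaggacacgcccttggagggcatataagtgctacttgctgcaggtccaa
The motifs, each searched on both strands, were CACCC (bound by Klf factors), CCAAT (bound by NF-Y), ATAAA (a form of the TATA box), GATAA (bound by GATA factors), TGACCA (the site that BCL11A binds in human fetal globin promoters) and GGCGGG (a GC box).

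A CACCC match lay in all 4 printed stretches, at 111 bases before the start in Hbb-y, 95 in Hba-x, 90 in Hbb-bs and 60 in Hba-a1, counted to the first base of the motif. TGACCA was found in the promoters of Hbb-y, where it overlaps the CCAAT motif by 3 bases, and of Hba-x, and these letters are not in the windows of Hbb-bs, Hbb-bt and Hba-a1. Such matches are common by composition. Of 32851 RefSeq promoter windows, each covering 250 bases before and 50 after a start, 57.5% held CACCC, 37.4% CCAAT, 40% ATAAA, 25.4% GATAA, 13.6% TGACCA and 35.3% GGCGGG. They are described as letters only, since the data hold no binding measurement. The table held promoters for 8 of the 10 genes.

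All 10 genes were expressed, with Hbb-y and Hba-x highest and Hbb-bh1 among the 3 lowest by mean level. Every one reached 1 TPM in both libraries, a level that 20% of the 21474 protein-coding genes reached. By mean level the order was Hbb-y, Hba-x, Zbtb7a, Mbd3, Mbd2, Chd4, Bcl11a, Hbb-bh1, Gatad2a and Sox6. For 7 of the 9 neighbouring pairs in this order the values of the libraries did not overlap. The exceptions were Hbb-y with Hba-x, whose order was opposite in the libraries, and Hbb-bh1 with Gatad2a.

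**Figure D1:**
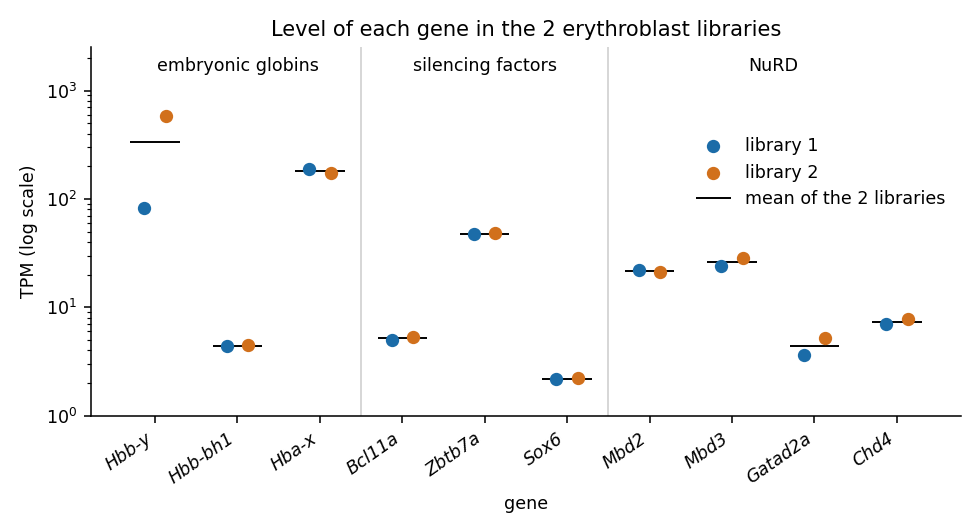
Level of each of the 10 genes in TPM (log axis), with library 1 in blue, library 2 in orange and a line at the mean of both. The libraries lie furthest apart for Hbb-y, with 81.8 TPM in library 1 against 584 TPM in library 2. Gatad2a follows at a much smaller distance, with 3.61 TPM in library 1 and 5.25 TPM in library 2.

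Hbb-y, the embryonic beta-like gene at the 5′ end of the cluster (chromosome 7, 103851749 to 103853216, minus strand), was the gene with the largest difference between the libraries among the 10. It had 4155 counts and 81.8 TPM in library 1, and 23342 counts and 584 TPM in library 2. Its mean of 333 ± 355 TPM therefore describes neither library, and its rank of 72 among the 4296 protein-coding genes detected at 1 TPM rests mainly on library 2. The log2 ratio of library 1 over library 2 was -2.68 (95% interval -2.73 to -2.63, counting error only), so library 1 held 0.156 times the level of library 2.

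Hbb-bh1, the next embryonic gene downstream (chromosome 7, 103841637 to 103843164, minus strand), did not share this difference. It had 203 counts in library 1 (95% Poisson interval 176 to 233) and 163 in library 2 (139 to 190.0), or 4.40 and 4.48 TPM. The log2 ratio was 0.13 with an interval of -0.18 to 0.43, and the adjusted p of the exact binomial test was 0.572. Hbb-y exceeded Hbb-bh1 18.6 times in library 1 and 130 times in library 2 by TPM.

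Hba-x, the embryonic alpha-like gene (chromosome 11, 32276400 to 32278116, plus strand), was steady at the level of the gene, with 8373 counts and 190 TPM in library 1, and 6808 counts and 172 TPM in library 2. Its log2 ratio was 0.11 (0.06 to 0.15), which passed the test against counting error at an adjusted p of 2.87e-05 with a fold of 1.08. Hba-x exceeded Hbb-y 2.33 times in library 1 and stood at 0.295 times Hbb-y in library 2.

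The reads of Hba-x were divided differently between its 2 transcripts in the libraries. The transcripts share their second and last exons and differ in the first, which has 359 bases in Hba-x-201 and 137 bases in Hba-x-202, with the start of Hba-x-202 lying 493 bases further downstream. Hba-x-201, the 801-base transcript whose first exon spans the promoter stretch shown above, was assigned 685 counts in library 1 and 3011 in library 2. Hba-x-202, of 579 bases, was assigned 7688 counts in library 1 and 3797 in library 2. As a share of the gene's TPM, Hba-x-201 took 5.58% in library 1 and 34.6% in library 2. The log2 ratio of library 1 over library 2 was -2.33 for Hba-x-201 and 0.83 for Hba-x-202. No test was made of these assignments, which the authors' quantifier estimated from reads that can match both transcripts in their shared exons.

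In the composition of the globin pool the 3 embryonic genes made up 0.0322% of globin TPM in library 1 and 0.0900% in library 2. Within the beta-like genes the embryonic pair took 0.0228% and 0.155% of TPM, of which Hbb-bh1 was 0.00116% and 0.00118%. By counts the pair took 0.0270% in library 1 (95% exact binomial interval 0.0262 to 0.0279) and 0.191% in library 2 (0.189 to 0.193). Within the alpha-like genes Hba-x took 0.0396% in library 1 and 0.0370% in library 2 of TPM. The larger of the embryonic genes thus changed between the libraries, with Hba-x at 68.8% of embryonic globin TPM in library 1 and 22.6% in library 2, and Hbb-y at 29.6% and 76.8%.

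Along each cluster the embryonic gene lies first and the adult genes follow. In the beta-like cluster, Hbb-y was followed by Hbb-bh1 at 10.1 kb, by Hbb-bh2 at 12.7 kb with 4 counts in library 1 and 0 in library 2, by Hbb-bs at 25.1 kb and by Hbb-bt at 39.2 kb. In library 2 a gene at 0 may hold up to 3 counts, which is 0.0678 CPM (counts scaled to library depth). The pseudogenes Hbb-bh0 and Hbb-bh3 between them had 0 counts in both libraries. Hbb-bs had 316734 TPM in library 1 against 348290 TPM in library 2, and Hbb-bt had 61931 and 30524 TPM, with reads divided between these near-identical copies, so the level of each copy is uncertain. In the alpha-like cluster, Hba-x was followed by Hba-a1 at 7.11 kb (478231 and 464012 TPM), the theta gene Hbq1b at 10.6 kb (7.67 and 9.74 TPM), Hba-a2 at 20.1 kb (2961 and 637 TPM) and the theta gene Hbq1a at 23.7 kb (0.10 and 1.29 TPM). The counts of Hba-a1, Hba-a2 and both theta genes were not whole, so their single levels are uncertain. Of globins used by other tissues, myoglobin (Mb) had 0 counts in both libraries, neuroglobin (Ngb) 0 and 1, and cytoglobin (Cygb) 4 and 2.

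**Figure D2:**
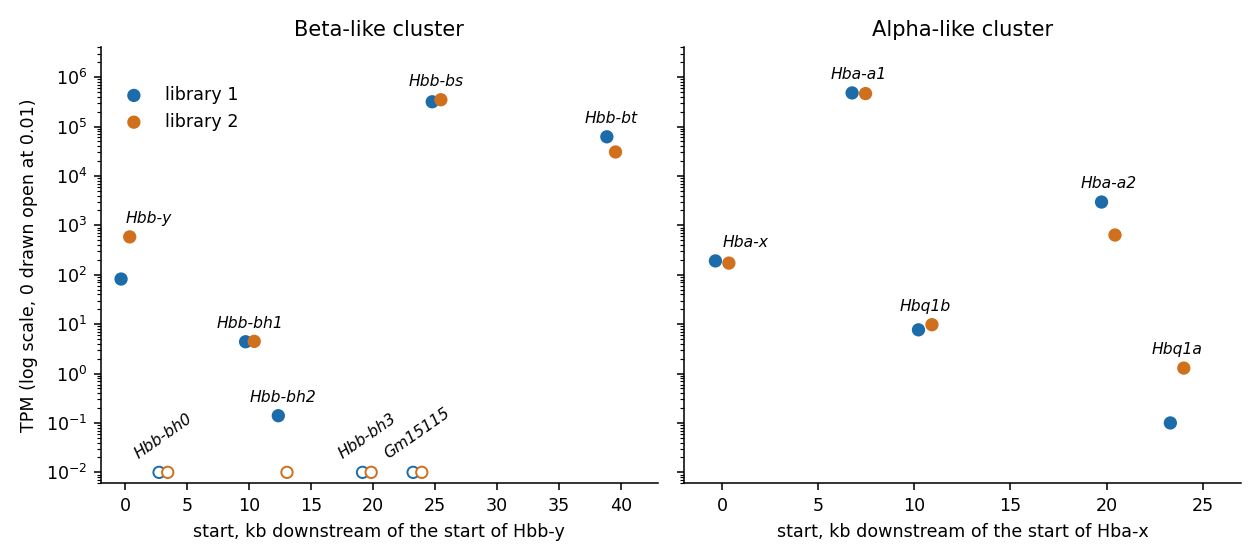
Level of each gene of the beta-like cluster (left) and alpha-like cluster (right) in TPM (log axis, with 0 drawn as an open point at 0.01) against the distance of its start downstream of Hbb-y or Hba-x in kb. Library 1 is blue and library 2 orange, drawn slightly apart. Hbb-bh1, at 4.40 and 4.48 TPM, lies far below Hbb-bs, at 316734 and 348290 TPM, and the embryonic genes Hbb-y and Hba-x lie between them.

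The 2 libraries were compared gene by gene with an exact binomial test on counts, with library sizes scaled by TMM, and directions are those of the scaled counts, which can differ from those of TPM. With 1 library on each side the test compares these libraries against counting error and says nothing of a condition. At an adjusted p under 0.05, 44.2% of the 10955 genes tested differed, 22.1% higher in library 1 and 22% higher in library 2. Of the 10 genes 7 differed, with Hba-x, Bcl11a, Zbtb7a and Mbd2 higher in library 1 and Hbb-y, Mbd3 and Gatad2a higher in library 2. With 163 counts or more per library for each of the 10, small ratios pass such a test, and the count is no result about these genes. Their median log2 ratio was 0.08, beside 0.01 over all genes tested, and their median absolute log2 ratio was 0.12, beside 0.24 over the 5256 genes that had at least 100 counts in each library.

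Hbb-y stood apart from the rest in size. A difference of 2-fold or more was found in 2.93% of the 5256 genes and in 1 of the 10, Hbb-y. Only 0.0951% of the genes, or 5 with Hbb-y included, had a ratio as far from 0 in either direction. The other 4 were Gm10925, Gm10260, Gm6136 and Atp6v0c-ps2, of which 3 are annotated as pseudogenes, and all 4 had counts that were not whole, so their reads were shared with other genes. Among the 4624 genes whose counts were whole, Hbb-y had the largest difference in either direction. On the side of library 2 it was followed by Atox1, a copper chaperone, at a log2 ratio of -2.21 and by Higd2a, a mitochondrial protein, at -1.96. These genes were named after their values were seen. The 5 genes of any kind whose ratio lay nearest to that of Hbb-y were Rps29 (-2.67), Gm17383 (-2.62), Kxd1 (-2.53), Atp6v0c-ps2 (-2.85) and Gm6136 (-2.87), over 2 libraries only, and none had whole counts.

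**Figure D3:**
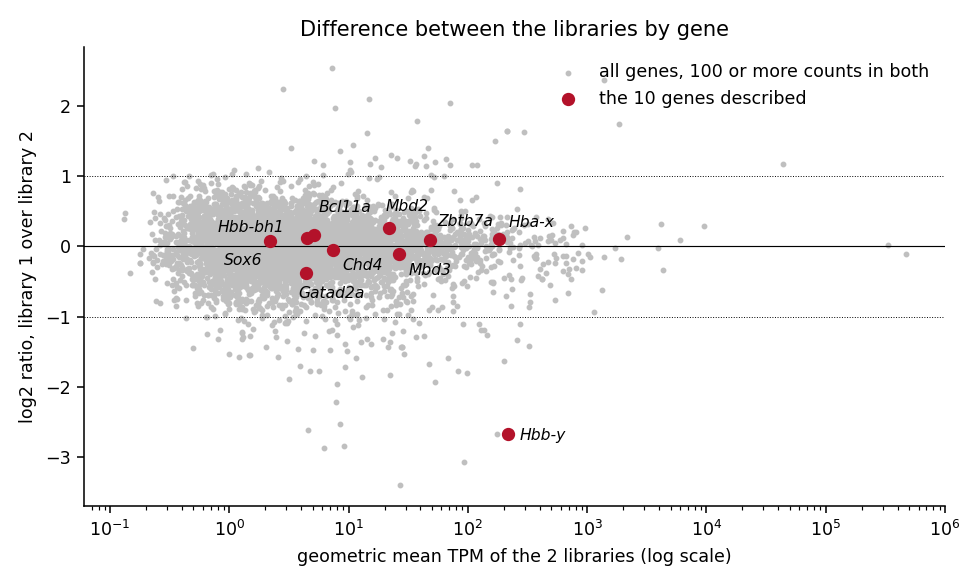
Log2 ratio of library 1 over library 2 (scaled counts) against the geometric mean TPM (log axis) for the 5256 genes that had at least 100 counts in each library, in grey, with the 10 genes in red and dotted lines at 2-fold. Hbb-y lies at -2.68, while the other 9 lie between -0.37 and 0.26.

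Among the DNA-binding silencers Zbtb7a was by far the most abundant. Zbtb7a (chromosome 10, 81135220 to 81152995, plus strand) had 24080 counts and 47.6 TPM in library 1, and 19796 counts and 48.3 TPM in library 2, at rank 385 of the detected protein-coding genes. It exceeded Bcl11a 9.58 times in library 1 and 9.01 times in library 2. The 3 protein-coding genes nearest to it in level over the 2 libraries were Rpl4, Mpc2 and Snrpb. Its log2 ratio was 0.09 (0.06 to 0.12), which passed the test against counting error (adjusted p = 3.83e-10), whereas its TPM was higher in library 2.

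Bcl11a (chromosome 11, 24078056 to 24174123, plus strand) had 1398 counts and 4.97 TPM in library 1, and 1093 counts and 5.36 TPM in library 2. This put it at rank 2105 of 4296, near the median of the detected protein-coding genes (5.02 TPM), beside Tnfrsf21, Cchcr1 and Fosb. The log2 ratio of counts was 0.16 (0.05 to 0.28, adjusted p = 0.0141), again with a TPM that was higher in library 2. Bcl11a is also known from B cells, plasmacytoid dendritic cells and early progenitors. The 8 markers of B and plasmacytoid cells summed to 0.65 TPM in library 1 and 1.00 TPM in library 2, with 0 of 8 at 1 TPM, and Ms4a1 and Siglech at 0 counts in both libraries. The 7 markers of early progenitors summed to 1.14 and 1.25 TPM, of which Gata2 held 0.85 and 0.78 TPM (257 and 184 counts) and the receptor gene Kit 0.07 and 0.02 TPM, with 0 of 7 at 1 TPM. The part of such cells in the level of Bcl11a was not tested.

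Sox6 (chromosome 7, 115470872 to 116038796, minus strand) was the lowest of the 10, with 1025 counts and 2.16 TPM in library 1, and 854 counts and 2.24 TPM in library 2. Its log2 ratio was 0.07 (-0.06 to 0.21, adjusted p = 0.417).

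The closest paralogs of the silencers were below 1 TPM in both libraries. Bcl11b, the relative of Bcl11a in T cells, and Sox5, a relative of Sox6, had 0 counts in both libraries, and Zbtb7c had 2 and 0. Zbtb7b, a lineage factor of T cells, had 0.43 TPM in library 1 and 0.51 TPM in library 2, and Sox13 had 0.06 and 0.01 TPM. Of the 8 paralogs, which include other methyl-CpG-binding proteins, 2 reached 1 TPM in both libraries, among them Mbd1 (1.57 and 1.57 TPM). The DNA repair enzyme Mbd4 had 0.06 and 0.03 TPM.

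Each position of the NuRD complex was covered by at least 1 gene at 1 TPM or more. Chd4, the remodelling ATPase (chromosome 6, 125095981 to 125130591, plus strand), had 3916 counts and 7.04 TPM in library 1, and 3558 counts and 7.73 TPM in library 2. Its log2 ratio of -0.05 did not pass the test (-0.12 to 0.01, adjusted p = 0.202), and its nearest neighbours in level were Srcap, Gspt1 and Gle1. Its paralog Chd3 had 1.75 and 1.14 TPM, so that Chd4 exceeded it 4.02 times in library 1 and 6.78 times in library 2, and Chd5, the form of neurons, had 0.02 and 0.01 TPM.

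Mbd2, which ties NuRD to methylated DNA, and Mbd3, which binds such DNA weakly and replaces Mbd2 in separate complexes, were present at similar levels. Mbd2 (chromosome 18, 70568189 to 70626131, plus strand) had 2998 counts and 22.2 TPM in library 1, and 2195 counts and 21.4 TPM in library 2. Mbd3 (chromosome 10, 80392539 to 80399550, minus strand) had 2752 counts and 23.9 TPM in library 1, and 2588 counts and 28.8 TPM in library 2. Mbd3 was thus 1.08 and 1.34 times Mbd2 by TPM. By counts, without correction for length, the ratio was 0.918 in library 1 and 1.18 in library 2. The log2 ratios of library 1 over library 2 were 0.26 for Mbd2 (0.18 to 0.34, adjusted p = 1.65e-09) and -0.10 for Mbd3 (-0.18 to -0.02, adjusted p = 0.0255). On log2(TPM + 1) they were 0.05 for Mbd2 and -0.26 for Mbd3.

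Gatad2a, which bridges the MBD protein to Chd4 (chromosome 8, 69907076 to 69996384, minus strand), had 1780 counts and 3.61 TPM in library 1, and 2019 counts and 5.25 TPM in library 2. Its log2 ratio of -0.37 (-0.47 to -0.28, adjusted p = 2.97e-14) was the second largest of the 10. The paralog Gatad2b had 25 and 15 counts, or 0.14 and 0.11 TPM, and Gatad2a exceeded it 25.8 times in library 1 and 47.7 times in library 2.

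Of the 11 other NuRD subunit genes, 9 reached 1 TPM in both libraries, and the median level of all 11 was 5.88 TPM. The MTA scaffold genes Mta3 (19.2 and 21.6 TPM) and Mta1 (18.9 and 21.8 TPM) and the small subunit gene Cdk2ap1 (16.8 and 23.2 TPM, with counts that were not whole) were highest, and Mta2 had 2.29 and 3.86 TPM. The deacetylase gene Hdac1 had 8.62 and 9.38 TPM, also with counts that were not whole, and Hdac2 had 2.86 and 2.49 TPM. Of the histone-binding subunits, Rbbp4 had 8.09 and 6.12 TPM and Rbbp7 6.67 and 5.09 TPM. In the binomial test 6 of the 11 were higher in library 1, 3 were higher in library 2 and 2 did not pass, beside 22.1% and 22% of all genes. Chd5, the lowest of them, had 15 and 3 counts.

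**Figure D4:**
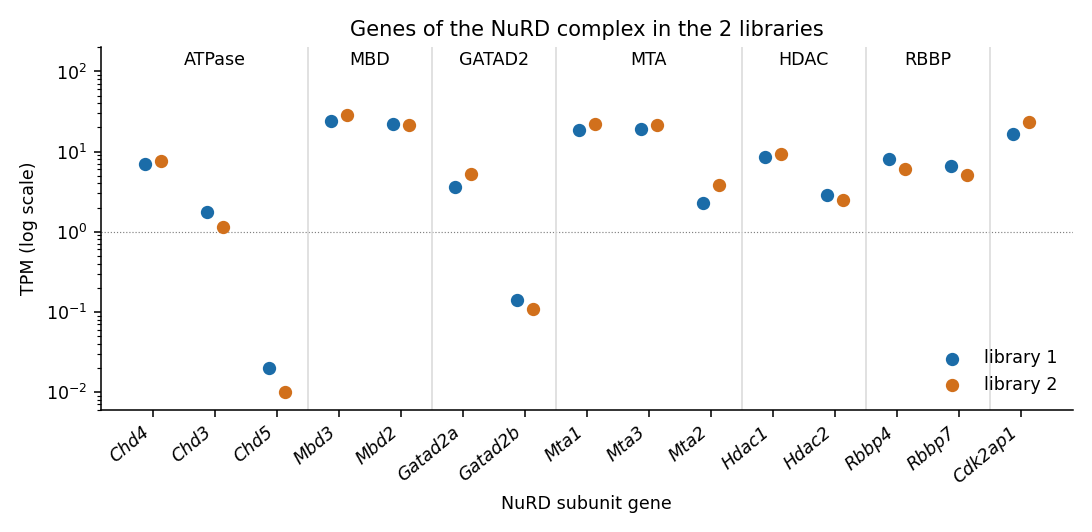
Level of 15 genes of the NuRD complex in TPM (log axis) by position in the complex, with library 1 in blue and library 2 in orange and a dotted line at 1 TPM. Chd5 and Gatad2b lie below the line in both libraries, and Mbd3 and Mbd2 have the highest means, at 26.3 and 21.8 TPM.

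Other cofactors linked to globin silencing were unevenly present, with 8 of 18 at 1 TPM or more in both libraries. The number depends on the cutoff, with 12 of 18 at 0.5 TPM or more in both. Globin genes take most of the TPM, which lowers the values of all other genes. With globin TPM left out of the total, Kdm1a, at 0.92 and 1.13 TPM, stood at 6.58 in library 1 and 7.25 in library 2. Ctbp1, a corepressor, was highest, with 53.5 TPM in library 1 against 54.0 TPM in library 2. It was followed by Uhrf1 (18.33 and 23.25 TPM, with counts that were not whole) and Dnmt1 (13.9 and 17.4 TPM), which maintain DNA methylation. The histone methyltransferase gene Ehmt2 had 6.53 and 7.20 TPM. Nr2c1 was lowest by mean level at 0.03 TPM in both libraries, with 7 and 5 counts. It and Nr2c2 encode TR2 and TR4, nuclear receptors that repress embryonic globins, and Nr2c2 had 0.17 and 0.10 TPM. Between the libraries 5 of the 18 were higher in library 1, 5 higher in library 2 and 8 did not pass, beside 22.1% and 22% of all genes tested, so the count says nothing particular of the list.

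Of 14 genes known to act upstream of the silencers or on fetal globin, 5 reached 1 TPM in both libraries. The median level of all 14 was 0.198 TPM, beside 0.02 TPM over all 21474 protein-coding genes. Klf1, an erythroid factor that activates Bcl11a, was highest, with 367 TPM in library 1 against 405 TPM in library 2, followed by the stress factor Atf4 (70.1 and 73.9 TPM), the heme-regulated kinase gene Eif2ak1 (17.2 and 16.9 TPM), Spop (3.01 and 2.75 TPM) and Nfix (1.99 and 2.91 TPM). Zfp410, a factor that activates Chd4, had 53 and 39 counts, or 0.21 and 0.20 TPM, and Hic2, a repressor of Bcl11a, had 0.14 and 0.24 TPM. The RNA-binding genes of the fetal programme were low, with Lin28a at 0 counts in both libraries, Lin28b at 21 and 38 counts, and Igf2bp1 at 333 and 592 counts, or 0.94 and 1.62 TPM. Lin28b and Igf2bp1 were both higher in library 2, as was Hbb-y, with log2 ratios of -1.05 (adjusted p = 0.0239) and -1.02 (adjusted p = 1.29e-24). The part of these genes in the difference of Hbb-y was not tested. In all, 4 of the 14 were higher in library 1, 3 higher in library 2 and 6 did not pass, beside 22.1% and 22% of all genes tested, and Lin28a had no counts to test.

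Of 9 factors listed as acting at the globin loci, 9 reached 1 TPM or more in both libraries, at a median level of 53.5 TPM. The Gata1 cofactor Zfpm1 had 342 TPM in library 1 and 410 TPM in library 2, and was followed by Lmo2 (145 and 164 TPM), Tal1 (101 and 76.4 TPM), Ldb1 (70.0 and 87.8 TPM) and Nfe2 (50.1 and 56.9 TPM), with Runx1 lowest at 3.65 and 3.88 TPM. Between the libraries 4 were higher in library 1, 3 higher in library 2 and 2 did not pass, beside 22.1% and 22% of all genes tested. Their log2 ratios lay between -0.22 for Gata1 and 0.40 for Tal1.

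Markers of other liver cells were low beside Hbb-y, and their summed levels were higher in library 2 for all 3 cell types. So was the sum of the erythroid markers. Globin genes took 86.0% of TPM in library 1 and 84.4% in library 2, so all other genes together held more TPM in library 2. The 6 hepatoblast markers summed to 8.77 TPM in library 1 and 12.45 TPM in library 2, the 7 macrophage markers to 10.99 and 17.18 TPM and the 5 megakaryocyte markers to 10.96 and 14.06 TPM. In the binomial test 3 of 7 macrophage markers were higher in library 2 and 0 of 7 in library 1, and the hepatoblast markers divided 2 and 2 and the megakaryocyte markers 1 and 1. Of all genes tested 22.1% were higher in library 1 and 22% in library 2. C1qc had 4.07 and 7.02 TPM and Csf1r 0.16 and 0.51 TPM. The macrophage markers Vcam1 (15 and 5 counts) and Adgre1 (11 and 7 counts) went the other way, and neither passed the test. The highest marker of these lists was Gp9, at 8.32 and 10.3 TPM, well below Hbb-y. It was above Chd4, Bcl11a, Hbb-bh1, Gatad2a and Sox6 in both libraries. Apoa1, at 6.01 and 8.05 TPM, was also above Bcl11a, Hbb-bh1, Gatad2a and Sox6 in both. The part of such cells in the levels of these genes was not tested. The 7 erythroid markers summed to 930 TPM in library 1 and 1215 TPM in library 2. Among them 3 were higher in library 1 and 3 in library 2 in the binomial test. Their log2 ratios lay between -0.61 for Alas2, the first enzyme of erythroid heme synthesis, and 0.29 for Tfrc, the transferrin receptor. The part of any of these markers in the difference of Hbb-y was not tested.

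Each of the 8 genes with several annotated transcripts had the same leading transcript in both libraries by TPM share, and 6 of 8 by counts. For Bcl11a the leader was Bcl11a-201, of 3061 bases and 773 codons, at 69.0% of TPM in library 1 and 67.1% in library 2. Bcl11a-202, of 835 codons, is the longest coding form, and it took 5.44% and 4.45% of TPM but 11.1% and 9.73% of counts. The forms of 243 and 191 codons, Bcl11a-203 and Bcl11a-204, exchanged places, with Bcl11a-203 at 23.0% in library 1 and 8.03% in library 2 and Bcl11a-204 at 2.49% and 20.4%. Codon numbers are those of GENCODE M21.

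Mbd2 was split between a long and a short coding form. Mbd2-202, of 249 codons, took 58.3% of TPM in library 1 and 64.5% in library 2, and Mbd2-201, of 414 codons, took 38.5% and 32.6%. By counts they were nearly equal, with Mbd2-202 at 48.6% and 55.3% and Mbd2-201 at 50.6% and 43.9%, so the leader depends on the unit in library 1. In Mbd3 the lead of Mbd3-206 (43.7% and 47.5% of TPM) over Mbd3-204 (32.1% and 30.2%) likewise turned round by counts in library 1, where they held 36.3% and 38.8%.

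The other factors had 1 dominant form. Zbtb7a-201, of 569 codons, took 85.1% of TPM in library 1 and 89.9% in library 2. Sox6-205, of 787 codons, took 81.8% and 80.5%, Gatad2a-203, of 614 codons, 57.8% and 67.1%, and Chd4-202, of 1922 codons, 64.6% and 79.9%. The transcript Chd4-201 was assigned 407 counts in library 1 and 0 in library 2, against 3916 and 3558 for the gene. Besides Hba-x, Bcl11a and Chd4 were the genes with a transcript whose share moved by 10 percentage points or more between the libraries. The deposited split is an estimate, and no test was made of it.

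**Figure D5:**
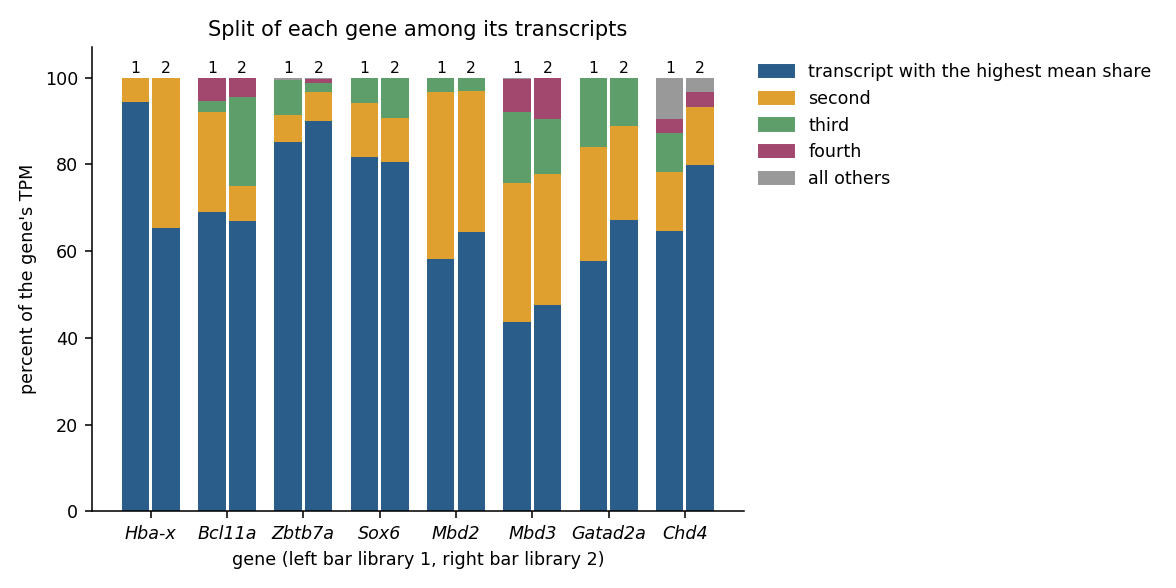
Percent of each gene's TPM in its transcripts (stacked bars, 1 bar for library 1 and 1 for library 2), with the transcripts of a gene ordered by mean share and colours that stand for that order. The bars of Hba-x differ most, with Hba-x-202 at 94.4% in library 1 and 65.4% in library 2.

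Base composition is given for the 10 genes as a description. The GC content of their transcripts was highest for Zbtb7a (64.4%) and Mbd3 (61.2%), at 56.2% for Gatad2a, 55.6% for Hba-x, 54.8% for Chd4 and 51.3% for Mbd2, and lower for Hbb-y (48.8%), Sox6 (48.7%), Bcl11a (48.0%) and Hbb-bh1 (46.8%). The median was 53.3% over detected protein-coding genes and 49.7% over all of them. Its part in the order of the levels was not tested.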

How the data were processed

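The libraries were aligned to mm10 with the GENCODE M4 annotation and quantified separately, per the listing deposited with them. The aligner, quantifier and strand setting are not given in any source used here. The authors deposited expected counts (estimated counts, in which shared reads are divided among genes), TPM, FPKM and the percent of each gene's TPM in each transcript. Symbols, positions and sequences came from GENCODE M21 and RefSeq, both on GRCm38. Of 121 listed genes, 1 was not analysed here.

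Expected counts were rounded to whole numbers. Library sizes were scaled by TMM in edgeR 4.0.16 (R 4.3.3). A two-sided exact conditional binomial test ran on every gene whose counts summed to at least 10, and its p-values were adjusted by Benjamini-Hochberg. At an unadjusted p under 0.05, 5476 of 10955 genes passed. The test was checked on counts simulated with counting error only, so the check does not cover variation between libraries beyond it. Transcript shares were read where a gene had at least 50 counts in each library. Intervals are 95% and cover counting error only.

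The 10 genes, the lists and the alternatives were chosen with earlier results of these data known. From each list the 5 highest genes, the lowest and those at 0 are named, together with all globins, the genes nearest to Hbb-y in library ratio and those nearest to Zbtb7a, Chd4 and Bcl11a in log2(TPM + 1); further genes were named after their values were seen, and a few genes of the lists are not reported here. Alternatives were DESeq2 1.42.0 size factors, total counts, other minima and units, and each library alone. The marker lists are given as sums with a few genes. Computations used pandas 2.3.3, scipy 1.17.1 and numpy 2.4.6 in Python 3.11.15, with figures drawn in matplotlib 3.10.9.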

Additional observations from a re-analysis of the deposited data

How the results depend on the processing

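Hbb-y kept its direction under every scaling and count minimum tried, and its log2 ratio of library 1 over library 2 was -2.82 on log2(TPM + 1) and -2.83 with a pseudocount of 0.1. The direction of Bcl11a and Zbtb7a between the libraries depends on the unit: their ratios by TPM were -0.091 and -0.11 for Bcl11a and -0.020 and -0.021 for Zbtb7a with pseudocounts of 1 and 0.1, against positive ratios by counts. With the same pseudocounts the ratios by TPM were 0.052 and 0.055 for Mbd2, -0.26 and -0.27 for Mbd3, and -0.12 and -0.13 for Chd4, each over 1.5 times away from the ratio by counts. With globin TPM left out of the total, Bcl11a and Zbtb7a were higher in library 1, as by counts. Bcl11a then stood at 35.5 in library 1 and 34.4 in library 2, and Zbtb7a at 340 and 310. By expected counts, without length correction, Zbtb7a over Bcl11a was 17.7, Chd4 over Chd3 was 16.1 and Gatad2a over Gatad2b was 102.9. At 5 TPM in both libraries 6 of the 10 genes were detected. The number of the 10 genes that differed between the libraries was 7 under each of the 5 alternative scalings and minima. Single libraries gave 0.0228% to 0.155% for the embryonic share of beta-like TPM and 0.0322% to 0.0900% for that of all globin TPM. No paired analysis was possible because there is 1 group. With 2 libraries no outlier could be tested, and transcript shares and levels of copies that share reads depend on the authors' division of reads.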
